A study of Mus musculus with 6 samples.

Results

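The subunits of the cytosolic chaperonin CCT (also called TRiC) are encoded by 8 mouse genes, Tcp1, Cct2, Cct3, Cct4, Cct5, Cct6a, Cct7 and Cct8, out of 19938 genes that had a probe set naming them alone. Each was read from the probe set annotated to it, and each had 1 such probe set, so no choice among probe sets was needed. The genes were chosen by the difference in log2 intensity between the 2 groups of arrays, which was known when they were proposed, and that difference is therefore given as a description with no test. All 8 lay above the intensity filter described below, and they sit on 8 different chromosomes.

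The arrays measured thioglycolate-elicited peritoneal macrophages of C57BL/6 mice aged 8 weeks, with 3 arrays in each of 2 groups. Both groups carried Cre recombinase on both copies of the lysozyme gene Lyz2 (LysMCre/Cre), which directs recombination to myeloid cells. The group labelled KLF2∆/∆ carried a floxed Klf2 gene in addition. Cells were collected 72 h after 2 ml of thioglycolate broth, left to attach for 4 h, kept for a further 24 h and then exposed to lipopolysaccharide (LPS) at 100 ng/ml for 6 h, so every array is LPS-treated and the contrast is between genotypes after LPS. The labels mention no sort, so the plates may hold any cell that adheres. Since no label names the mouse behind an array, errors and p-values cover only the spread among the arrays, which may be technical.

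Array medians lay between log2 7.85 and 7.90. Klf2 itself read 8.88, 8.97 and 8.94 under LysMCre/Cre and 9.10, 9.25 and 9.21 under the label KLF2∆/∆, a difference of 0.26 ± 0.064 (SE, limma adjusted p = 0.00398) that goes against the label. The Cre-bearing gene Lyz2 differed by 0.0050 ± 0.057 (adjusted p = 0.964). The labels and files do not place its probes inside or outside the deleted part, so directions below are between the arrays labelled KLF2∆/∆ and the LysMCre/Cre arrays. Of 15 macrophage markers, 14 were above the filter, among them Adgre1 and Csf1r, while of 10 T and NK cell markers 2 were.

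CCT is an ATP-driven folding machine made of stacked rings, in which each ring holds a single copy of every subunit in a fixed order. It folds newly made actin and tubulin, proteins with WD repeats and regulators of the cell cycle, and receives many of them from prefoldin and HSP70. The order around the ring, worked out in yeast and cattle, runs Tcp1, Cct3, Cct6a, Cct8, Cct7, Cct5, Cct2, Cct4 and back to Tcp1. In yeast the side formed by Cct3, Cct6 and Cct8 binds ATP weakly and the side with Cct5, Cct2 and Cct4 binds it strongly.

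The subunit genes lie apart in the genome, and they were chosen on the difference between the groups. Their upstream sequences are shown as a description only. RefSeq promoter windows (GRCm38.p6) were matched for 7 of the 8 genes, Cct4 being the exception. The 250 bases before the most upstream start of Cct3, the subunit with the largest difference between the groups, of its ring neighbour Cct6a, of Cct7, and of Cct2, which had the smallest difference among the 7, are printed below from 5′ to 3′ on the gene's strand. Capitals mark the GC box GGGCGG and the CCAAT box CCAAT on either strand.
Cct3: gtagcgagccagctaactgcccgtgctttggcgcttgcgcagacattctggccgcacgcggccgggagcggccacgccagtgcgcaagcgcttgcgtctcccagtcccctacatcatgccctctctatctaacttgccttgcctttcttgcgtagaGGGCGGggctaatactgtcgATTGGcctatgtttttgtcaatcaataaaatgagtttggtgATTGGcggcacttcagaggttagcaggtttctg
Cct6a: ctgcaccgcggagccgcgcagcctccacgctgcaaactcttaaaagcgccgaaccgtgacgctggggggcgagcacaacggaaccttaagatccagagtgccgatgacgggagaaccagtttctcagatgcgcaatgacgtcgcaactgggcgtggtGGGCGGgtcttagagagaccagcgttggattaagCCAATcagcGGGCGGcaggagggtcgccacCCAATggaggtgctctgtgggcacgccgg
Cct7: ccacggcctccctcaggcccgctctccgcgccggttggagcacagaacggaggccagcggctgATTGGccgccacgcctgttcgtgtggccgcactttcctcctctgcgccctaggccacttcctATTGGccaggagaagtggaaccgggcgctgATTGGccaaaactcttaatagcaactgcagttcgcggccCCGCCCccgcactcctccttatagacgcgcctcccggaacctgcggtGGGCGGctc
Cct2: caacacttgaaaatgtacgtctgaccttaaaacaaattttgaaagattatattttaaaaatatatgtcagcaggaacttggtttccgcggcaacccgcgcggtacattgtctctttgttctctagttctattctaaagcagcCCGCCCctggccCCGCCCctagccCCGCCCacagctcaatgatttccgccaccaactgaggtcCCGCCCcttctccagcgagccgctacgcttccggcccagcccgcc

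These windows are chr3:88296885-88297134 (plus strand) for Cct3, chr5:129787106-129787355 (plus strand) for Cct6a, chr6:85451255-85451504 (plus strand) for Cct7 and chr10:117063853-117064102 (minus strand) for Cct2. A GC box was present in 7 of 7 windows, against 33.0% of the windows of all 27025 genes in the table. Cct2 held 4 of them, beginning 45, 84, 96 and 108 bases before the start. The CCAAT box was found in 4 of 7 windows, those of Cct3, Cct6a, Cct7 and Tcp1, against 34.5% of all windows, and Cct7 held 3. The sequence CACCC, a core of the sites that KLF proteins bind, was found in 3 of 7 windows (Cct5, Cct6a and Cct8) against 51.3% of all windows. Neither the E-box CACGTG, the site of MYC and its partners (6.04% of all windows), nor GAANNTTC, a pair of heat shock element units (6.79%), occurred in any of the 7. Each motif was searched on both strands, and matches of different motifs may overlap. The CACCC match of Cct6a shares letters with a CCAAT box. GC content of the member windows ran from 45.2% for Cct5 to 66.4% for Cct7, beside a median of 52.0% over all windows, and the shares were not adjusted for it. A match describes these letters and is not a binding site.

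All 8 subunits had a lower mean in the arrays labelled KLF2∆/∆, with a median difference of -0.31 on the log2 scale (1.24-fold). In 7 of the 8, all values of the arrays labelled KLF2∆/∆ lay below all LysMCre/Cre values. Among all 12649 tested genes, 21.4% had groups that did not overlap in this direction, 19.3% did so in the other, and the median difference was 0.0019. Since the subunits were chosen with this contrast known, nothing is read from their count. These were bulk cultures, in which fewer cells of a type and less RNA per cell cannot be told apart.

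The ring neighbours Cct3, Cct6a and Cct8 are given first. Cct3, the gamma subunit, read 10.69, 10.76 and 10.66 under LysMCre/Cre and 10.17, 10.43 and 10.19 under KLF2∆/∆, a difference of -0.44 ± 0.063 (SE, n = 3 and 3) that put it at 73.7% of the LysMCre/Cre level. The groups were 0.24 apart at their closest, between LysMCre/Cre replicate 3 and KLF2∆/∆ replicate 2, which stood above the other 2 arrays of its group. Of all tested genes, 4.37% had a lower difference than Cct3.

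Cct8, the theta subunit, read 10.23, 10.32 and 10.17 against 9.83, 9.96 and 9.78 and so differed by -0.39 ± 0.061 (1.31-fold), with a gap of 0.21 between the groups. Cct6a, the zeta subunit that is made outside the testis, read 11.10, 11.13 and 11.15 against 10.78, 10.91 and 10.62, a difference of -0.36 ± 0.059 (1.28-fold). Its LysMCre/Cre values were close together (SD 0.0229), whereas those of the arrays labelled KLF2∆/∆ were spread over more than that (SD 0.142). Its paralogue Cct6b, which in mice is made mainly in the testis, lay below the filter in all 6 arrays, from 5.67 to 5.90, and was not tested.

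Cct7 and Cct5 follow them around the ring, and the difference of Cct5 lay within its error of that of Cct6a. Cct7, the eta subunit, read 10.31, 10.31 and 10.29 under LysMCre/Cre and 9.94, 10.12 and 10.004 under KLF2∆/∆, a difference of -0.28 ± 0.057 (1.22-fold). Cct5, the epsilon subunit, read 10.22, 10.29 and 10.14 against 9.79, 10.001 and 9.84, a difference of -0.34 ± 0.063 (1.26-fold). For Cct5 the highest array labelled KLF2∆/∆ and the lowest LysMCre/Cre array were 0.14 apart, and for Cct7 they were 0.16 apart. Tcp1, the alpha subunit after which the complex was first named, read 11.02, 11.05 and 11.08 against 10.78, 10.91 and 10.66, a difference of -0.26 ± 0.057 (1.20-fold).

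Cct2 and Cct4 are neighbours on the side that in yeast binds ATP strongly. Cct2, the beta subunit, read 11.98, 12.08 and 12.01 against 11.81, 11.88 and 11.81, a difference of -0.19 ± 0.042 (1.14-fold) with a gap of 0.10 between the groups. Cct4, the delta subunit, read 10.34, 10.42 and 10.38 under LysMCre/Cre and 10.28, 10.38 and 10.34 under KLF2∆/∆. Its groups overlapped, and its difference of -0.046 ± 0.052 was smaller than its standard error. Cct4 had the sign of the other 7 but was the one subunit whose groups overlapped, and 36.7% of all tested genes had a lower difference. Intensities of different probe sets are not comparable, so these values give no order of abundance among the subunits.

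**Figure D1:**
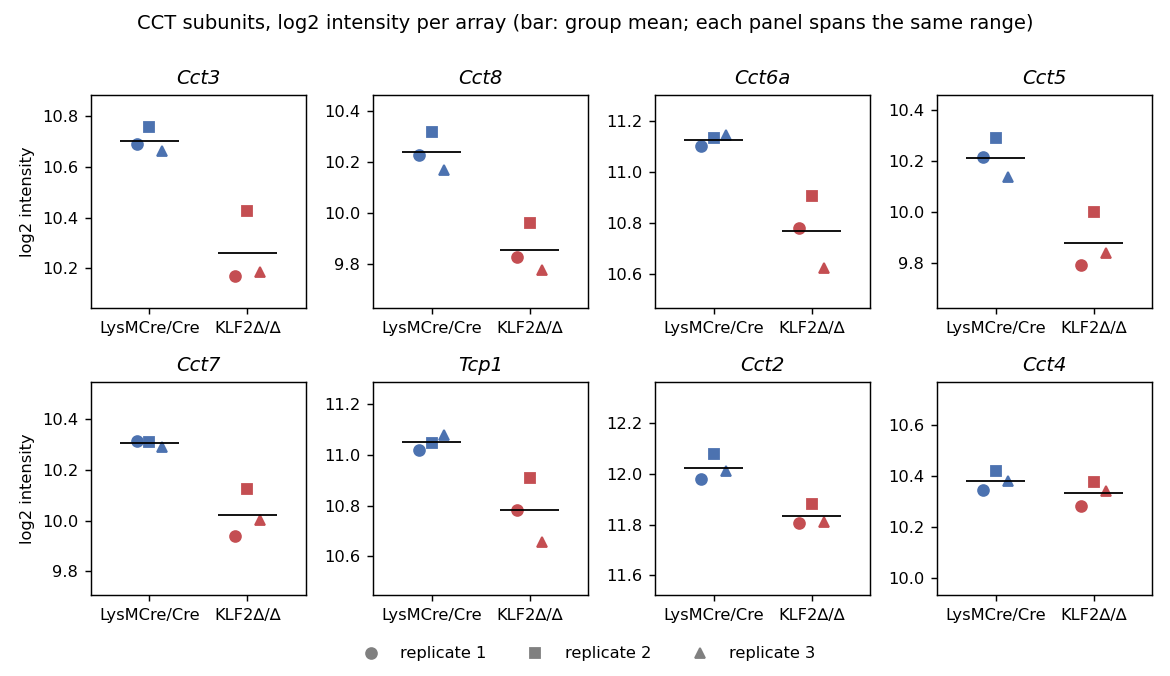
Log2 intensity of each CCT subunit (y axis) in the 3 LysMCre/Cre and 3 KLF2∆/∆ arrays (x axis), with marker shape for the replicate number and a bar at the group mean; every panel spans the same range of log2 values. The groups are apart for 7 subunits and overlap for Cct4, and KLF2∆/∆ replicate 2 (square) is the highest of its group in all 8 panels.

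**Figure D2:**
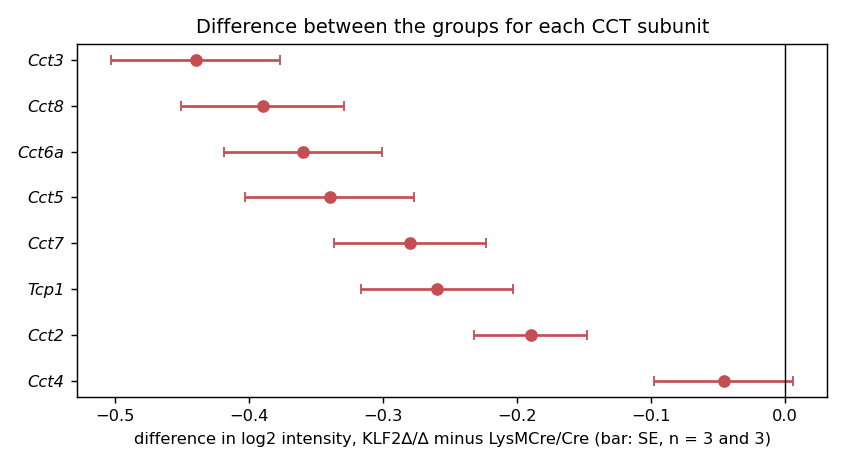
Mean log2 intensity of the KLF2∆/∆ arrays minus that of the LysMCre/Cre arrays (x axis) for each CCT subunit (y axis), with bars for the standard error of the fit. Differences run from -0.44 for Cct3 to -0.046 for Cct4, whose bar reaches past 0.

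Within the group labelled KLF2∆/∆, replicate 2 was the highest array for 8 of 8 subunits. The same array was highest for 49.0% of all tested genes and for 62.0% of the 2709 genes whose groups did not overlap in the lower direction. KLF2∆/∆ replicate 1 was the lowest for 5 subunits and replicate 3 for 3. The LysMCre/Cre arrays had no such shared order. There replicate 2 was the highest for 5 subunits and replicate 3 for 2, and the lowest was replicate 1 for 4 subunits and replicate 3 for the other 4, with replicate 3 the highest for Tcp1 and Cct6a and the lowest for Cct3, Cct5, Cct7 and Cct8. Centred on each gene's mean over the 6 arrays, the average of the 8 subunits was 0.13, 0.18 and 0.12 under LysMCre/Cre and -0.19, -0.04 and -0.21 under KLF2∆/∆. The median difference of the subunits was -0.37 without KLF2∆/∆ replicate 2 and lay between -0.37 and -0.28 whichever array was left out. For 7 of the 8 subunits the standard deviation was larger in the arrays labelled KLF2∆/∆ (0.0423 to 0.143 over the 8, against 0.0137 to 0.0778 in the LysMCre/Cre arrays), as it was for 69.5% of all tested genes. The 8 subunits share the same 6 RNA samples and are not replicates of the contrast.

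Genes were searched for the profile over the 6 arrays closest to the average of the subunits, by the root mean square difference of centred log2 values. The 10 closest named genes outside the complex were Stim2, Pgk1, Hnrnph1, Slc25a30, Mprip, Rcn2, Cd14, Srebf2, B4galt1 and Snrpe, at 0.013 to 0.025. Stim2, a calcium sensor of the endoplasmic reticulum, was the closest, and Pgk1, a glycolytic kinase, followed at 0.019. Of the subunits themselves Cct7 was the closest to their average, at 0.031, with 33 other named genes nearer, and Cct4 was the farthest, at 0.13. The shape of the profile was thus shared with many genes outside the complex.

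The genes that work with CCT were compared across the whole array, and here a gene is called when its limma adjusted p was below 0.05. Of all tested genes 29.8% were called, 16.2% lower and 13.6% higher. Every list below was chosen with earlier results of these data known, so its share is a description and no independent support. Cofactors and CCT-like proteins were divided. Of 23 listed, 18 were tested, 3 were called lower (16.7%, near the share of all genes), 2 higher, and the median difference was -0.011. Prefoldin, the hexamer that hands unfolded actin and tubulin to CCT, had 2 called subunits. Pfdn4 read 8.39, 8.36 and 8.31 in the LysMCre/Cre arrays against 8.07, 8.16 and 7.99, with a difference of -0.28 ± 0.070 (adjusted p = 0.00496) and no overlap. Pfdn2 differed by -0.18 ± 0.055 (adjusted p = 0.0163). The other prefoldin subunits Vbp1, Pfdn1, Pfdn5 and Pfdn6, chosen after their values were seen, did not pass. Of these, Vbp1 had the same difference as Pfdn2, -0.18 ± 0.077 (limma adjusted p = 0.0873), and its groups did not overlap. Those of Pfdn1 (-0.011), Pfdn5 (0.079) and Pfdn6 (-0.075) overlapped. Ruvbl2, an ATPase of a complex that works with a prefoldin-like assembly, was lower by -0.24 ± 0.063 (adjusted p = 0.00604).

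Called higher were Mkks, a CCT-like protein that helps assemble the BBSome (0.27 ± 0.069, adjusted p = 0.00466), and Txndc2, a thioredoxin of the testis (0.25 ± 0.081, adjusted p = 0.0262). Mkks read 8.61, 8.64 and 8.47 against 8.79, 8.93 and 8.83, so this CCT-like gene and the CCT subunits lay on opposite sides of 0. Txndc2 is in the list but is not CCT-like, and no work with CCT is claimed for it here. With means of 7.45 and 7.70, it passed the filter level of 7.49 only through the group where it is high. Its call is thus no support for a difference, and Mkks is the 1 gene of this list called higher with both means above that level. Without LysMCre/Cre replicates 2 or 3 or KLF2∆/∆ replicate 1 the call of Pfdn2 was lost (adjusted p = 0.0881, 0.0572 and 0.0710, in a range of 0.00255 to 0.0881 over 15 alternatives). That of Txndc2 was also lost without LysMCre/Cre replicate 3 (0.146) or KLF2∆/∆ replicate 2 (0.110, in a range of 0.0166 to 0.146). Without KLF2∆/∆ replicate 2, 5 cofactors were called lower, with Vbp1 and Ruvbl1 added.

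Among proteins reported to fold on CCT, together with the tubulin cofactors that act after it, 8 of 31 tested genes were called lower (25.8%), 1 higher, and 22 did not pass, with a median of -0.047. Plk1, a mitotic kinase, read 9.73, 9.77 and 9.79 against 8.73, 8.94 and 8.73, a difference of -0.96 ± 0.067 (adjusted p = 9.11e-10). Cdc20, the WD-repeat activator of the anaphase-promoting complex, differed by -0.70 ± 0.081 (adjusted p = 1.07e-06). Both are also cell cycle genes. Of the tubulins, Tuba4a differed by -0.56 ± 0.071 (adjusted p = 4.07e-06), Tubb2a by -0.36 ± 0.064 (adjusted p = 0.000190) and Tubb5 by -0.29 ± 0.038 (adjusted p = 5.58e-06). Tubulin genes resemble each other, so their probe sets may share signal, and Tuba1b, Tuba1c and Tubb4b had no probe set naming them alone. Actb, cytoplasmic beta-actin, is a main client and was chosen after its values were seen. It read 14.19, 14.22 and 14.21 against 14.19, 14.15 and 14.17, and its difference of -0.035 ± 0.026 did not pass (adjusted p = 0.363). The gene called higher was the transcription factor Stat3 (0.12 ± 0.036, adjusted p = 0.0131), named because it was the only one called in that direction. Without LysMCre/Cre replicate 1 or 2, 0 clients were called higher, with Stat3 at adjusted p = 0.0763 and 0.0548, in a range of 0.0102 to 0.107 over 15 alternatives.

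Other chaperone systems, whose lists were likewise chosen with results known, also had lower members. In the cytosolic HSP70 and HSP90 system 14 of 37 tested genes were called lower (37.8%) and 0 higher by limma (0 at an unadjusted p below 0.05), and the median was -0.11. Hspb1, a small heat shock protein, differed by -0.97 ± 0.070 (adjusted p = 1.56e-09) and Hspb8, another of that family, by -0.59 ± 0.084 (adjusted p = 1.58e-05). Hsp90aa1, the inducible cytosolic HSP90, read 11.43, 11.56 and 11.44 against 10.97, 10.99 and 10.97, a difference of -0.50 ± 0.047 (adjusted p = 6.85e-08). Ppid, a prolyl isomerase that binds HSP90, differed by -0.57 ± 0.061 (adjusted p = 4.79e-07), and Naca, which binds chains leaving the ribosome, by -0.31 ± 0.052 (adjusted p = 0.000102). Hspa8, the constitutive HSP70 that passes clients to CCT, was chosen after its values were seen and was lower by less, at -0.15 ± 0.030 (adjusted p = 0.000404). Hspb1 and Naca each had 2 probe sets naming them alone, and Hsp90aa1 and Hspa8 each had 3. The values given are those of the brightest. The identifiers used for Hspb1, Hsp90aa1, Hspa8 and Naca lie between those of genes on chromosomes 13, 11, 5 and 12. The genes themselves are on chromosomes 5, 12, 9 and 10, in that order. These values may therefore come from other loci, which was not checked. With the probe sets of a gene averaged, the differences were -0.97, -0.47, -0.15 and -0.3, in the same order. Each average still includes the probe set in question. Without KLF2∆/∆ replicate 3 the J-protein Dnajb6 was called higher (0.26, adjusted p = 0.0192, against 0.396 with all 6 arrays and a range of 0.0192 to 0.863 over 14 alternatives), the 1 gene of this list in that direction.

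CCT has a distant relative in mitochondria, the HSP60 chaperonin, whose ring is made of Hspd1 and capped by Hspe1. Hspd1 read 10.35, 10.46 and 10.40 against 9.88, 10.10 and 9.86, a difference of -0.46 ± 0.063 (adjusted p = 1.19e-05), with KLF2∆/∆ replicate 2 again the highest of its group. Hspe1 read 10.50, 10.55 and 10.52 against 10.15, 10.19 and 9.69, a difference of -0.52 ± 0.089 (adjusted p = 0.000140), with KLF2∆/∆ replicate 3 well below the rest. Hspd1 and Hspe1 each had 2 probe sets naming them alone, and the values given are those of the brightest. Both genes are on chromosome 1. The identifier of the Hspd1 probe set used lies between those of genes on chromosome 11, and that of Hspe1 between those of genes on chromosome 18. These values may therefore come from other loci, which was not checked. Hspa9, the mitochondrial HSP70, differed by -0.24 ± 0.045 (adjusted p = 0.000317). The protease subunit gene Clpp differed by -0.20 ± 0.067 (adjusted p = 0.0258). In all, 4 of 11 tested genes were called lower (36.4%) and 0 higher by limma (0 at an unadjusted p below 0.05), with a median of -0.11. Clpp lost its call without an intensity trend (adjusted p = 0.0515) and without LysMCre/Cre replicates 1 or 3 or KLF2∆/∆ replicates 1 or 3 (0.156, 0.0510, 0.125 and 0.0666), in a range of 0.00419 to 0.156 over 15 alternatives.

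Chaperones of the endoplasmic reticulum, which fold secreted and membrane proteins and do not work with CCT, were called lower in 12 of 19 cases (63.2%) and higher in 0 by limma (0 at an unadjusted p below 0.05), with a median of -0.24. Hsp90b1, the HSP90 of this compartment, differed by -0.53 ± 0.048 (adjusted p = 4.33e-08). The disulfide isomerases Pdia4 and P4hb differed by -0.57 ± 0.059 (adjusted p = 2.59e-07) and -0.47 ± 0.051 (adjusted p = 4.88e-07). With the probe sets of a gene averaged, Pdia4 differed by -0.32 (limma adjusted p = 0.000699, the highest over its alternatives, which started at 2.43e-10). Calr, a calcium-binding lectin chaperone, and Hyou1, a large HSP70 relative, differed by -0.36 ± 0.041 (adjusted p = 1.07e-06) and -0.49 ± 0.063 (adjusted p = 4.91e-06). Whether CCT differed from any of these systems was not tested.

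**Figure D3:**
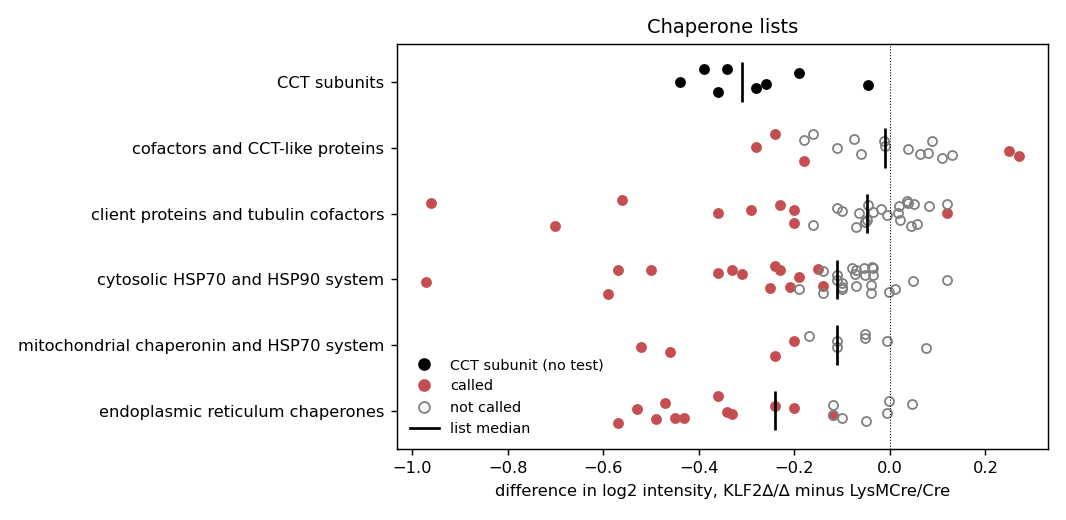
Difference in log2 intensity, KLF2∆/∆ minus LysMCre/Cre (x axis), for each tested gene of 5 chaperone lists and for the CCT subunits (rows). Filled red points are genes called by limma, open points are not called, black points are CCT subunits without a test, and a vertical bar marks each list's median, from -0.31 for the subunits and -0.24 for the endoplasmic reticulum to -0.011 for the cofactors.

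Of the factors known to act on chaperone genes, Myc, a growth-promoting transcription factor, read 10.53, 10.61 and 10.62 against 9.69, 9.78 and 9.61, a difference of -0.89 ± 0.057 (adjusted p = 3.06e-10). Its partner Max was higher, by 0.36 ± 0.046 (adjusted p = 3.48e-06). Heat shock factor Hsf2 did not pass (-0.10 ± 0.071, adjusted p = 0.348), and Hsf1 had no probe set naming it alone. Of 7 listed factors 6 were tested, with 1 lower and 1 higher.

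Cell cycle genes, fibroblast and mesothelial markers and resident peritoneal macrophage markers were mostly lower in the same arrays. A called gene with 1 group mean under the filter level passed the filter only through the other group, and such genes numbered 4 of the cell cycle genes, 2 of the resident markers and 0 of the fibroblast and mesothelial markers. Of 27 tested cell cycle genes 24 were called lower, 0 higher by limma (1 at an unadjusted p below 0.05), with a median of -0.50, and their summed intensity ran from 16570 to 17018 under LysMCre/Cre and from 12314 to 13164 under KLF2∆/∆. For fibroblast and mesothelial markers 14 of 17 were called lower and 0 higher (0 at an unadjusted p below 0.05), the median was -0.68, and the sums ran from 23684 to 23872 and from 13561 to 14946. Resident peritoneal macrophage markers gave 10 of 12 lower and 0 higher (0 at an unadjusted p below 0.05), a median of -0.62, and sums of 30592 to 31259 and 16159 to 17393. General macrophage markers gave 3 of 14 lower and 7 higher, a median of 0.10, and sums of 65399 to 65934 and 71906 to 72950. The summed intensity of the CCT subunits ran from 14926 to 15580 and from 12068 to 13463. In each sum the brightest genes weigh most, so sums of different lists are not comparable with each other. KLF2∆/∆ replicate 2, the highest of its group for CCT, was also the highest for the cell cycle (-0.19 against -0.27 and -0.29, mean of centred log2 values) and for the fibroblast and mesothelial markers (-0.22 against -0.34 and -0.34). That order was not particular to these lists. The same array was the highest for resident markers (-0.47 against -0.53 and -0.51) and for general macrophage markers, most of which were not lower (0.042 against 0.022 and 0.019). It was the highest for 49.0% of all tested genes. For mast cell markers it was the lowest (-0.21 against -0.12 and -0.18). The part of these cells and of proliferation in the CCT values was not tested.

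Among the other marker lists, neutrophil markers were called higher in 3 of 6 tested genes, 2 of which (Mmp8 and S100a9) passed the filter only through the group where they are high. Mast cell markers were called lower in 4 of 4, of which Cpa3 passed in that way, and dendritic cell markers lower in 2 and higher in 1 of 6. None of the 5 B cell markers, the 2 T and NK cell markers or the 2 eosinophil and erythroid markers was called by limma, nor did any reach an unadjusted p below 0.05. The gene with the smallest p in the dendritic cell list was Fscn1 (-0.79).

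**Figure D4:**
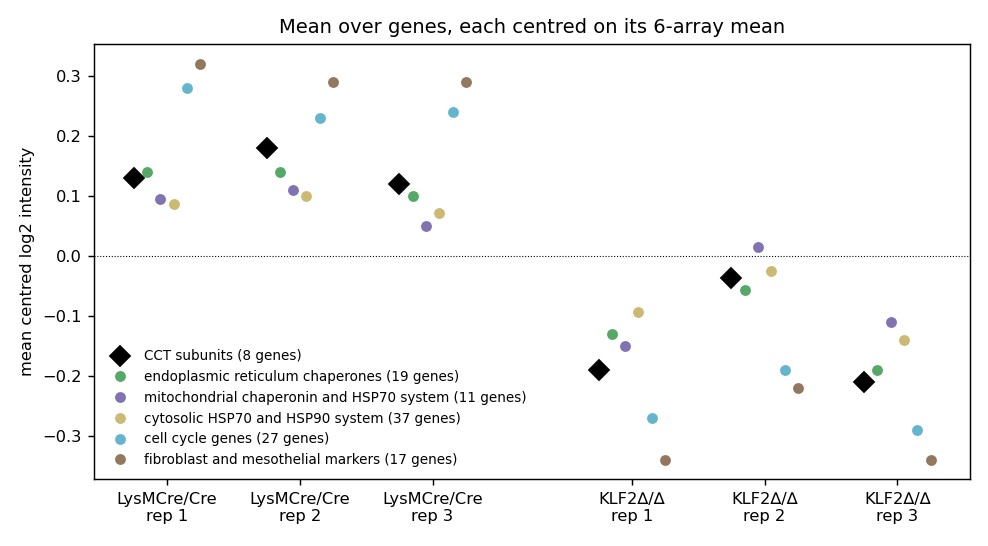
Mean over the genes of each list of log2 intensity centred on the gene's own mean over the 6 arrays (y axis), per array (x axis), for the CCT subunits (black diamonds), 3 chaperone lists, cell cycle genes and fibroblast and mesothelial markers. All lists are higher in the LysMCre/Cre arrays, and within the KLF2∆/∆ arrays replicate 2 is the highest for each list shown.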

How the data were processed

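Total RNA (150 ng) of 6 cultures was labelled with biotin and hybridised to Affymetrix mouse arrays. The main deposited table gives a log2 intensity for every probe set on every array. Affymetrix Expression Console and RMA are the tools in the submitters' processing notes; RMA equalizes the distribution of values across arrays and compresses ratios of dim probe sets. The other deposited table is the same data as linear intensity, per the file headers (log2 values within 5.1e-05). No version, filter, genome build or scan date is stated in the labels or headers, so batches of arrays were not tested. The number of arrays limits the precision.

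Of 35557 probe sets, the 6613 with the lowest identifiers, none annotated, were treated as controls. Of the remaining 28944, 21789 name 1 gene, 1621 name several (none of these a CCT subunit) and 5534 name none. RefSeq (GRCm38.p6) supplied current symbols by gene identifier for 21698. Each gene was represented by its brightest probe set, and genes with a mean below the 40th percentile (log2 7.49) were left out, which left 12649. Where a probe set lies in the genome was not checked. For some genes of the chaperone lists with several probe sets, the identifier of the brightest falls among those of another chromosome. The comparison used limma 3.58.1 under R 4.3.3 (intensity trend, no replicate block, two-sided, Benjamini-Hochberg over all tested genes). Same-numbered arrays did not deviate together (r = -0.0906, 0.115 and -0.0491 across genes), so they were not treated as pairs. Summed intensities add the linear values of a list's tested genes.

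The subunits and the 16 gene lists were chosen with earlier results of these data known. Named genes are the subunits, Klf2 and Lyz2, of each chaperone list the called genes (at most 5, by p), at most 3 genes of a marker list, and the 10 closest profiles; others are said to be chosen after their values were seen. No set test was run. Figures were drawn with matplotlib 3.10.9.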

Additional observations from a re-analysis of the deposited data

How the results depend on the processing

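Of 15 alternatives, the 2 filters and averaged probe sets could not move CCT values, since each subunit has 1 probe set above both filters. The replicate block and the variance model without a trend could not either, since they change only the errors in this balanced design. Nor could the second deposited table, which holds the same data. Under the 2 scalings, array weights and the 6 fits without 1 array the median difference of the subunits ran from -0.37 to -0.28. In these, 7 or 8 subunits had groups that did not overlap, a count that array weights could not move. The subunits were chosen on this contrast, so this is a description. With the replicate number as a block, although the arrays are not shown to be paired, 2077 of all genes were called lower and 1747 higher. No count for a chaperone list changed, and the median of -0.31 and the 7 subunits without overlap were fixed by the design. Counts that moved by more than 1.5 times were those of few genes. Cofactors called higher numbered 1 with a filter at the 60th percentile and 1 to 3 without single arrays, and those called lower 2 to 5 without single arrays. Clients called higher numbered 2 after quantile normalization was applied again, 0 without an intensity trend and 0 to 1 without single arrays. The HSP70 and HSP90 list had 0 to 1 called higher without single arrays. The stricter filter removes genes from the test; for the other changes the cause was not tested. Without single arrays the sign turned for Lyz2, which did not pass (-0.033 to 0.044; the turned values were -0.033, -0.027 and -0.0013). Signal close to background limits genes such as Txndc2 and Cct6b.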
